A study of Mus musculus with 42 samples.

Results

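Saa3, Lcn2, Chil3, Ly6c2 and F13a1, genes with high levels late in the response of macrophages to a glucocorticoid, were followed through a time course in 2 genotypes. They are 5 of the 11160 genes of the deposited count table, found there by symbol, and were picked as acute-phase, monocyte and granule genes because they stood far higher after long dexamethasone (Dex) treatment than after vehicle. The 5 genes were thus chosen by their Dex against vehicle values, which are given as a description with no test. The genotype comparisons played no part in that choice and are tested.

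The cells were mouse bone marrow-derived macrophages, grown from marrow with M-CSF, the growth factor of the monocyte lineage, then detached and plated again. The groups were MS4A4A knockout (KO) and wild-type (WT) cells, each after 2, 8 or 24 h with 1 µM Dex, after 2, 8 or 24 h with vehicle, or untreated, which makes 14 groups of 3 libraries and 42 libraries in all. MS4A4A is a membrane protein of the tetraspan MS4A family found on macrophages, and the design asks whether its loss alters the response to a corticosteroid. The labels give neither the way the knockout was made nor the strain or age of the mice, and leave it unsaid if the 3 libraries of a group stem from different cultures or mice, so p-values measure the spread between libraries, which may be technical. Everything was measured by RNA sequencing of total lysates of a culture, in which fewer cells of a type and less RNA per cell cannot be told apart.

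Dex binds the glucocorticoid receptor, a ligand-activated transcription factor that lowers many inflammatory genes of macrophages and raises others, among them genes of the acute-phase response. That response is the change in secreted proteins that follows tissue injury or infection, driven in liver and in macrophages by cytokines such as interleukin 6 and interleukin 1, often together with glucocorticoids. Saa3 encodes serum amyloid A3, the form of this acute-phase apolipoprotein made mainly outside the liver, by macrophages and fat cells among others. Lcn2 encodes lipocalin 2, which binds bacterial siderophores and so withholds iron, and is also stored in neutrophil granules. Chil3 encodes Ym1, a secreted chitinase-like protein without chitinase activity, known as a marker of alternatively activated mouse macrophages and found in neutrophil precursors too. Ly6c2 encodes a Ly6C antigen, the lipid-anchored surface protein that marks classical monocytes and is lost as they become macrophages. F13a1 encodes the A subunit of coagulation factor XIII, the transglutaminase that cross-links fibrin, which monocytes and macrophages carry inside the cell.

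All 5 genes are protein-coding and lie on the minus strand of different chromosomes of GRCm38, in the GENCODE M21 annotation. Saa3 lies at chr7:46711998-46715700, Lcn2 at chr2:32384633-32388252, Chil3 at chr3:106147554-106167564, Ly6c2 at chr15:75108158-75111970 and F13a1 at chr13:36867178-37050244. Salmon-type estimated counts divide reads between similar transcripts, and 41.5% of the distinct 31-base words of Chil3 transcripts also occur in another gene, 28.9% in Chil4. For Ly6c2 the share was 23.8%, with 21.4% in Ly6c1, whereas it was 7.56% for Saa3, 1.19% for F13a1 and 0 for Lcn2. Chil4 and Ly6c1 were not analysed here, so the values of Chil3 and Ly6c2 depend on how the authors' counting split shared reads. F13a1 is overlapped by the antisense genes Gm49144 and Gm30489, and the sources used here do not state if reads were counted by strand.

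The start-site sequences of Saa3, Lcn2 and Chil3 are shown because these genes of secreted proteins were high together late under Dex and each holds a match to a motif of a regulator described further on. Each sequence runs 5′ to 3′ on the minus strand from 250 bases before to 50 bases after the annotated start, from RefSeq on GRCm38.p6, at chr7:46715627-46715926 for Saa3, chr2:32387690-32387989 for Lcn2 and chr3:106167515-106167814 for Chil3. Capitals mark motif matches.
Saa3: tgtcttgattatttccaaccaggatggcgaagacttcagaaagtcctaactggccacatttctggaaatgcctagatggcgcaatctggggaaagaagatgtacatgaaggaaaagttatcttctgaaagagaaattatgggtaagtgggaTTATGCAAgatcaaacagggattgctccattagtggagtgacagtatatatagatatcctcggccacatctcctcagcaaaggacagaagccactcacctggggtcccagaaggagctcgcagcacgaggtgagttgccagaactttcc
Lcn2: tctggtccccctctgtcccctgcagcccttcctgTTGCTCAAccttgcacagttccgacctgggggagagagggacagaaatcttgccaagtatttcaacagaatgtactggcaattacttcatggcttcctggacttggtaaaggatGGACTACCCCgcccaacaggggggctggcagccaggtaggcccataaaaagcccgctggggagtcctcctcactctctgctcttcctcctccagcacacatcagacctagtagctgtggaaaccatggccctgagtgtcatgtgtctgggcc
Chil3: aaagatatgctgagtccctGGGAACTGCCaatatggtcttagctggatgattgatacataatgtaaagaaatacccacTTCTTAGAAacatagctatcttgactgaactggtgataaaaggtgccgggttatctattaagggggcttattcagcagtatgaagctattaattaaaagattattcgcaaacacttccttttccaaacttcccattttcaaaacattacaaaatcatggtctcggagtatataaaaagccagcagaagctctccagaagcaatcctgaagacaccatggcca

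The letters were searched on both strands, counting positions from 1 at the start site and from -1 just before it. The C/EBP motif TTGCNNAA was found in Saa3, as TTATGCAA on the reverse strand from -99 to -92, and in Lcn2, as TTGCTCAA from -216 to -209, and in none of the windows of the other 3 genes, against 10.8% of 32544 distinct promoter windows of the same length. The STAT motif TTCNNNGAA was found in Chil3, as TTCTTAGAA from -172 to -164, against 8.33% of all windows. The NF-kB motif, GGG and CC with 5 bases between them, held by 51.0% of all windows, was found in Lcn2 from -102 to -93, in Chil3 from -231 to -222, and in the window of the second listed start of Ly6c2 and of F13a1. The looser C/EBP motif TTNNGNAA, which includes every TTGCNNAA match read on either strand and is not capitalised, was in the windows of all 5 genes and in 40.7% of all windows. The palindromic glucocorticoid response element, searched as GNACA and TGTNC with 3 bases between them and in 0.476% of windows, and its single site AGAACA, in 18.9%, had no match in any window of the 5 genes, which says only that these letters are not in these windows.

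The libraries held 10140211 to 33528397 estimated counts, with a median of 27998690, and all 5 genes passed the filter on low counts. Levels are given as CPM, counts scaled to library size with the TMM factor, and are compared between libraries of the same gene and not between genes. The label of the cells was checked with 10 macrophage markers, all 10 measured, whose summed level was 18087 to 42509 CPM per library. Lyz2, the lysozyme gene that neutrophils and monocytes express as well, made up 61.5% to 84.8% of that sum, and the other 9 markers together stood at 6472 to 8146 CPM. Of these Csf1r, the M-CSF receptor gene, had 1216 to 2951 CPM, Adgre1, which encodes F4/80, 1321 to 2299 CPM and Mertk, a receptor for dying cells, 72.4 to 591 CPM, while the fractalkine receptor gene Cx3cr1 was low at 0.0979 to 12.3 CPM. Ms4a4a, the targeted gene at chr19:11375523-11392790 on the plus strand, averaged 46.7 ± 2.69 CPM in untreated KO and 89.1 ± 6.36 CPM in untreated WT macrophages (SD, n = 3 each), so its transcript was lower in the KO but remained measurable. A single library stood apart. The libraries were placed by 1122 genes that differed more than 2-fold between Dex and vehicle in WT at 24 h (edgeR quasi-likelihood, adjusted p under 0.05). The scale ran from the WT vehicle mean to the WT Dex mean, so the WT libraries lie around its ends by construction. KO vehicle 24 h replicate 2 lay 0.199 of the way, against -0.025 to 0.037 for the other vehicle libraries and 0.923 to 1.06 for the Dex libraries. It stays in the values below, and results that rest on it are also given without it.

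Saa3 showed the widest margin of the 5 genes at 24 h of Dex, with little difference at 2 h. Untreated KO macrophages had 8.71, 8.74 and 6.98 CPM and untreated WT macrophages 7.74, 11.6 and 7.48 CPM. At 2 h Saa3 read 9.77, 13.3 and 11.8 CPM with Dex against 7.03, 7.05 and 7.81 CPM with vehicle in KO macrophages, and 7.47, 9.32 and 5.37 CPM with Dex against 8.09, 8.82 and 6.88 CPM with vehicle in WT macrophages. The KO libraries with Dex lay just above those with vehicle, and the WT libraries overlapped. For how many of all genes the KO libraries were separate at 2 h was not counted. At 8 h it read 58.7, 55.2 and 72.8 CPM with Dex against 8.10, 7.39 and 13.9 CPM with vehicle in KO macrophages, and 73.0, 50.9 and 47.5 CPM with Dex against 6.09, 7.56 and 6.36 CPM with vehicle in WT macrophages. At 24 h it read 292, 444 and 325 CPM with Dex against 5.23, 23.0 and 5.38 CPM with vehicle in KO macrophages, and 448, 444 and 312 CPM with Dex against 6.84, 6.07 and 4.53 CPM with vehicle in WT macrophages. Every Dex library stood above every vehicle library at both later times, and the highest vehicle library was KO vehicle 24 h replicate 2. The share of all genes as separate at 8 or 24 h was not counted, for Saa3 and for the genes that follow. The log2 fold, Dex over vehicle and averaged over the genotypes, was 0.29 ± 0.24 (SE) at 2 h, 2.89 ± 0.24 at 8 h and 5.52 ± 0.26 at 24 h, the last a 45.8-fold difference. Without KO vehicle 24 h replicate 2 the 24 h value was 6.06. The mean over 6 libraries at 8 h of Dex was 15.8% of that at 24 h.

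Lcn2 had reached most of its final level by 8 h. Untreated KO macrophages had 2.75, 2.71 and 4.02 CPM and untreated WT macrophages 4.01, 2.28 and 7.38 CPM. At 2 h Lcn2 read 1.77, 3.37 and 4.09 CPM with Dex against 1.77, 2.44 and 4.48 CPM with vehicle in KO macrophages, and 2.80, 1.95 and 4.83 CPM with Dex against 3.21, 1.65 and 4.96 CPM with vehicle in WT macrophages. These 2 h libraries overlapped one another and the untreated ones. At 8 h it read 24.1, 17.8 and 22.2 CPM with Dex against 1.41, 2.26 and 3.02 CPM with vehicle in KO macrophages, and 19.9, 14.3 and 20.6 CPM with Dex against 1.74, 1.04 and 4.62 CPM with vehicle in WT macrophages. At 24 h it read 31.1, 29.8 and 32.7 CPM with Dex against 1.64, 3.0 and 4.70 CPM with vehicle in KO macrophages, and 30.8, 35.2 and 27.2 CPM with Dex against 2.82, 0.603 and 4.68 CPM with vehicle in WT macrophages. Dex and vehicle libraries did not overlap at 8 or 24 h in either genotype, while the vehicle libraries varied widely around a low level. The log2 fold was 0.06 ± 0.35 at 2 h, 3.09 ± 0.34 (8.50-fold) at 8 h and 3.44 ± 0.34 (10.9-fold) at 24 h, so that the step between 8 and 24 h, 0.35 ± 0.47, was smaller than its SE. At 8 h of Dex the mean was 63.6% of that at 24 h.

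Chil3 was higher at 8 h of Dex and far higher at 24 h. Untreated KO macrophages had 20.9, 18.8 and 31.1 CPM and untreated WT macrophages 19.8, 15 and 34.3 CPM. At 2 h Chil3 read 20.1, 21.2 and 35.1 CPM with Dex against 20.1, 16.6 and 28.6 CPM with vehicle in KO macrophages, and 17.8, 17.9 and 33.9 CPM with Dex against 15.3, 15.2 and 28.2 CPM with vehicle in WT macrophages. Dex, vehicle and untreated libraries overlapped at this time. At 8 h it read 28.3, 34 and 59.5 CPM with Dex against 14.7, 15.4 and 24.2 CPM with vehicle in KO macrophages, and 31.6, 24.6 and 68.2 CPM with Dex against 12.7, 12.6 and 25.4 CPM with vehicle in WT macrophages. At 24 h it read 281, 249.6 and 282 CPM with Dex against 17.4, 26.7 and 23.1 CPM with vehicle in KO macrophages, and 274, 239.9 and 263 CPM with Dex against 17.2, 8.83 and 26.6 CPM with vehicle in WT macrophages. The 8 h groups overlapped in WT and not in KO, but within each replicate number, whose libraries deviated together at this time, the Dex library was above the vehicle library in both genotypes. At 24 h the lowest Dex library was far above the highest vehicle library in both genotypes. The log2 fold was 0.24 ± 0.27 at 2 h, 1.23 ± 0.27 (2.35-fold) at 8 h and 3.74 ± 0.29 (13.4-fold) at 24 h, and the 8 h Dex mean was 15.5% of the 24 h one.

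Ly6c2 was lower after 24 h of vehicle than in untreated cells, so its distance between Dex and vehicle came from both sides. Untreated KO macrophages had 9.32, 7.42 and 8.74 CPM and untreated WT macrophages 10.8, 13.8 and 13.7 CPM. At 2 h Ly6c2 read 8.40, 9.32 and 7.54 CPM with Dex against 6.56, 7.89 and 7.92 CPM with vehicle in KO macrophages, and 9.22, 11.4 and 9.20 CPM with Dex against 9.45, 11.1 and 11.5 CPM with vehicle in WT macrophages. Dex and vehicle libraries overlapped at 2 h within each genotype. At 8 h it read 7.47, 6.60 and 7.0 CPM with Dex against 4.66, 5.47 and 4.49 CPM with vehicle in KO macrophages, and 9.29, 10.3 and 10.4 CPM with Dex against 5.21, 7.39 and 7.0 CPM with vehicle in WT macrophages. At 24 h it read 17.7, 20.5 and 14.2 CPM with Dex against 1.13, 1.84 and 1.85 CPM with vehicle in KO macrophages, and 25.8, 20.6 and 17.8 CPM with Dex against 1.36, 2.31 and 2.39 CPM with vehicle in WT macrophages. In both genotypes Dex and vehicle libraries did not overlap at 8 or 24 h, and the 24 h vehicle libraries were the lowest of all 42. The log2 fold of Dex over vehicle was 0.04 ± 0.12 at 2 h, 0.57 ± 0.12 (1.48-fold) at 8 h and 3.42 ± 0.14 (10.7-fold) at 24 h. Set beside the untreated cells, however, the Dex libraries were lower at 8 h, at a log2 difference of -0.31 ± 0.12, and only 1.86-fold higher at 24 h (0.90 ± 0.12). The vehicle libraries stood at -0.88 ± 0.12 against untreated cells at 8 h and at -2.53 ± 0.14, or 0.173 of the untreated level, at 24 h.

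F13a1 was higher with Dex from 8 h and also, by far less, after 24 h in vehicle. Untreated KO macrophages had 15.3, 17.2 and 16.3 CPM and untreated WT macrophages 15.2, 17.3 and 10.8 CPM. At 2 h F13a1 read 19.0, 20.4 and 17.1 CPM with Dex against 17.1, 15.7 and 12.8 CPM with vehicle in KO macrophages, and 14.9, 20.2 and 15.3 CPM with Dex against 9.38, 22.4 and 12.5 CPM with vehicle in WT macrophages. Dex libraries overlapped vehicle libraries in WT at this time. In KO they lay barely above, with the lowest Dex and the highest vehicle library both at 17.1 CPM. How many of all genes were as separate was not counted. At 8 h it read 178, 113 and 109 CPM with Dex against 13.9, 12.8 and 11.8 CPM with vehicle in KO macrophages, and 111, 133 and 119 CPM with Dex against 12.6, 18 and 14.3 CPM with vehicle in WT macrophages. At 24 h it read 784, 651 and 572 CPM with Dex against 39.7, 66.5 and 25.8 CPM with vehicle in KO macrophages, and 570.3, 769 and 687 CPM with Dex against 37.7, 42.1 and 31.8 CPM with vehicle in WT macrophages. No Dex library reached down to a vehicle library at 8 or 24 h, and KO vehicle 24 h replicate 2 again held the highest vehicle value. The log2 fold was 0.24 ± 0.18 at 2 h, 3.20 ± 0.19 (9.17-fold) at 8 h and 4.05 ± 0.19 (16.6-fold) at 24 h, with 4.26 at 24 h when that library was left out. Vehicle at 24 h was 2.62-fold above untreated (log2 1.39 ± 0.18), and Dex at 24 h 43.4-fold above it. The 8 h Dex mean was 18.9% of the 24 h one.

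**Figure D1:**
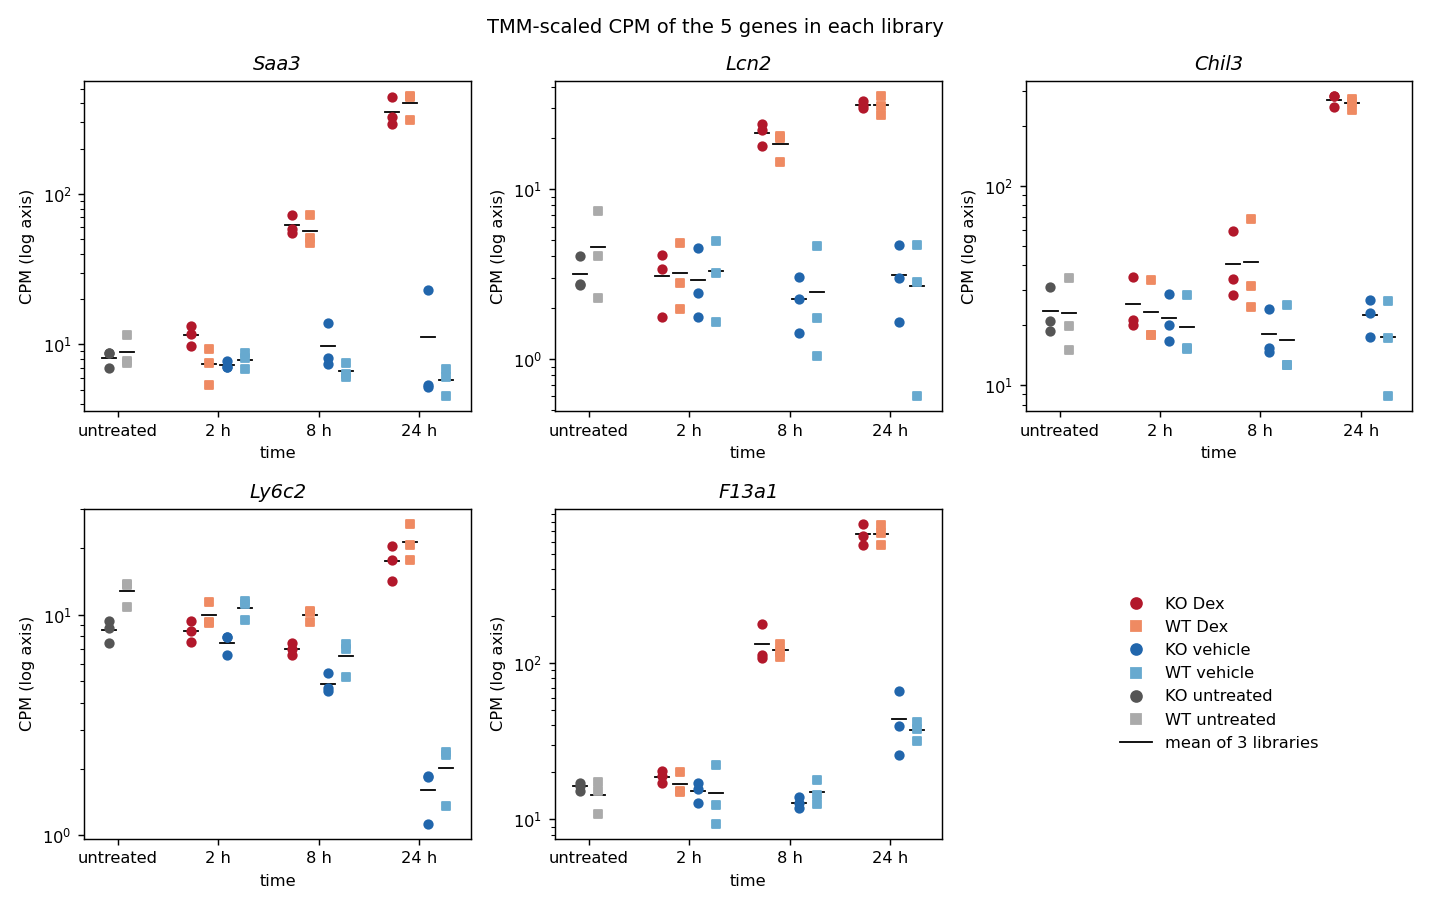
Level of each of the 5 genes in CPM (log axis) in every library by time, with KO circles left of WT squares, Dex in red and orange, vehicle in blue, untreated in grey and a bar at the mean of 3 libraries. At 24 h all Dex points lie above all vehicle points for each gene, the Ly6c2 vehicle points fall below the untreated ones, and a single KO vehicle point of Saa3 lies at 23.0 CPM above its group.

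The order of the 7 conditions, as means over both genotypes (6 libraries each), was headed by Dex 24 h for each gene. Saa3 stood at 377 CPM after Dex 24 h and at 59.7 CPM after Dex 8 h, and its other 5 conditions, between 7.61 and 9.51 CPM, had overlapping libraries. Chil3 stood at 265 CPM after Dex 24 h and at 41.0 CPM after Dex 8 h, whose libraries overlapped the remaining conditions at 17.5 to 24.3 CPM. For Lcn2 the 2 upper conditions, 31.1 and 19.8 CPM, did not overlap each other, and the other 5 lay between 2.35 and 3.86 CPM with overlap. F13a1 had a further step, with 672 CPM after Dex 24 h, 127 CPM after Dex 8 h and 40.6 CPM after vehicle 24 h, above 13.9 to 17.8 CPM in the rest. Ly6c2 had 19.4 CPM after Dex 24 h, 10.6 CPM in untreated cells, 9.18, 9.08 and 8.50 CPM after Dex 2 h, vehicle 2 h and Dex 8 h, 5.70 CPM after vehicle 8 h and 1.81 CPM after vehicle 24 h, where neighbours from untreated cells to vehicle 8 h had overlapping libraries.

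Among the 11160 genes, the 24 h log2 folds of Saa3, F13a1, Chil3, Lcn2 and Ly6c2 ranked 7, 21, 30, 36 and 37 from the top, between neighbours such as Hif3a above Saa3 at 6.00 and Abca6 below Ly6c2 at 3.38. At 8 h the ranks of F13a1, Lcn2, Saa3, Chil3 and Ly6c2 were 60, 68, 78, 378 and 1097. Dex called 26.8% of all genes higher and 26.8% lower at 24 h, 27.5% higher and 24.7% lower at 8 h, and 8.14% higher and 6.41% lower at 2 h (edgeR quasi-likelihood, Benjamini-Hochberg, adjusted p of 0.05). Nothing is read from the 5 genes against these shares, since this contrast chose them. How many of all genes had Dex and vehicle libraries that did not overlap was not counted. Over the 14 group means, Pearson's r of log2 CPM between pairs of Saa3, Lcn2, Chil3 and F13a1 was 0.876 to 0.961, and that of Ly6c2 with these 4 was 0.369 to 0.605. The genes most like each were Napsa (0.995), Emb (0.989) and Ecm1 (0.988) for Saa3, and Gda (0.988), Naa60 (0.988) and Nat9 (0.985) for Lcn2. For Chil3 they were Aox3 (0.979), Mmp8 (0.963) and Saa3 itself (0.960), for F13a1 Ctage5 (0.998), Cask (0.995) and Khk (0.994), and for Ly6c2 Sec11a (0.901), Lgmn (0.898) and Spa17 (0.891). These r values are descriptions over 14 points that share the Dex step and the same libraries.

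Whether loss of MS4A4A shifted the 5 genes was asked first on their level. Ly6c2 was lower in KO than in WT macrophages without Dex, and the other 4 genes were not called. Averaged over the untreated and the 3 vehicle conditions, Ly6c2 in KO stood at 0.732 of its level in WT (log2 -0.45 ± 0.09, SE, 12 libraries a side; adjusted p = 0.0282, edgeR quasi-likelihood, Benjamini-Hochberg over all genes). This comparison called 25 of the 11160 genes, or 0.224%. With Dex the Ly6c2 difference was -0.35 ± 0.10 (9 libraries a side) and did not pass (adjusted p = 0.223, unadjusted 0.000941, edgeR quasi-likelihood, Benjamini-Hochberg), where 6 genes, 0.0538% of all, were called.

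The Ly6c2 mean was lower in KO in each of the 7 conditions, and the libraries of the 2 genotypes did not overlap in untreated cells, after 2 h of vehicle and after 8 h of Dex. All KO libraries lay below all WT libraries for 3.36%, 5.04% and 3.93% of all genes in these 3 conditions. Between libraries of the same number Ly6c2 was lower in KO in 21 of 21 pairs, a description, since the numbers were taken as pairs in only 4 of the 7 conditions. The share of all genes with every pair in 1 direction was not counted. Untreated cells averaged 8.49 ± 0.972 CPM in KO and 12.8 ± 1.69 CPM in WT (SD, n = 3 each), and cells with 8 h of Dex 7.02 ± 0.432 CPM in KO and 9.97 ± 0.587 CPM in WT. The log2 difference in single conditions was -0.58 untreated, -0.24, -0.51 and -0.29 after 2, 8 and 24 h of Dex, and -0.52, -0.42 and -0.28 after 2, 8 and 24 h of vehicle. None of these passed with 3 libraries a side (adjusted p of 0.656 or above, edgeR quasi-likelihood, Benjamini-Hochberg). The call without Dex treats all 24 libraries as independent samples. With the counts of the 4 conditions summed by genotype and replicate number, 3 sums a side, the difference was -0.40 ± 0.11 and was not called (adjusted p = 0.9996, edgeR quasi-likelihood, Benjamini-Hochberg). It also lost its call when 1 of 7 of the 24 libraries was left out: the adjusted p was then 0.0576 without WT vehicle 2 h replicate 3, 0.0650 and 0.0501 without KO vehicle 8 h replicate 1 and 3, 0.0625 without WT vehicle 8 h replicate 3, 0.0670 without KO vehicle 24 h replicate 1, and 0.0578 and 0.0539 without WT vehicle 24 h replicate 2 and 3 (edgeR quasi-likelihood, Benjamini-Hochberg).

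Saa3, Lcn2, Chil3 and F13a1 differed between the genotypes by less than their error allows to call. Without Dex the log2 difference, KO minus WT, was 0.31 ± 0.17 for Saa3, -0.11 ± 0.26 for Lcn2, 0.17 ± 0.20 for Chil3 and 0.05 ± 0.13 for F13a1, with adjusted p between 0.654 and 0.930 (edgeR quasi-likelihood, Benjamini-Hochberg). With Dex it was 0.20 for Saa3, 0.07 for Lcn2, 0.06 for Chil3 and 0.10 for F13a1. Saa3 without Dex was 0.03 when KO vehicle 24 h replicate 2 was left out. In single conditions the KO and WT libraries of these 4 genes overlapped, except for Saa3 after 2 h of Dex, where all KO libraries lay above all WT libraries, as did those of 5.23% of all genes. That log2 difference, 0.66 ± 0.34, was not called (edgeR quasi-likelihood, adjusted p = 0.586, Benjamini-Hochberg).

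**Figure D2:**
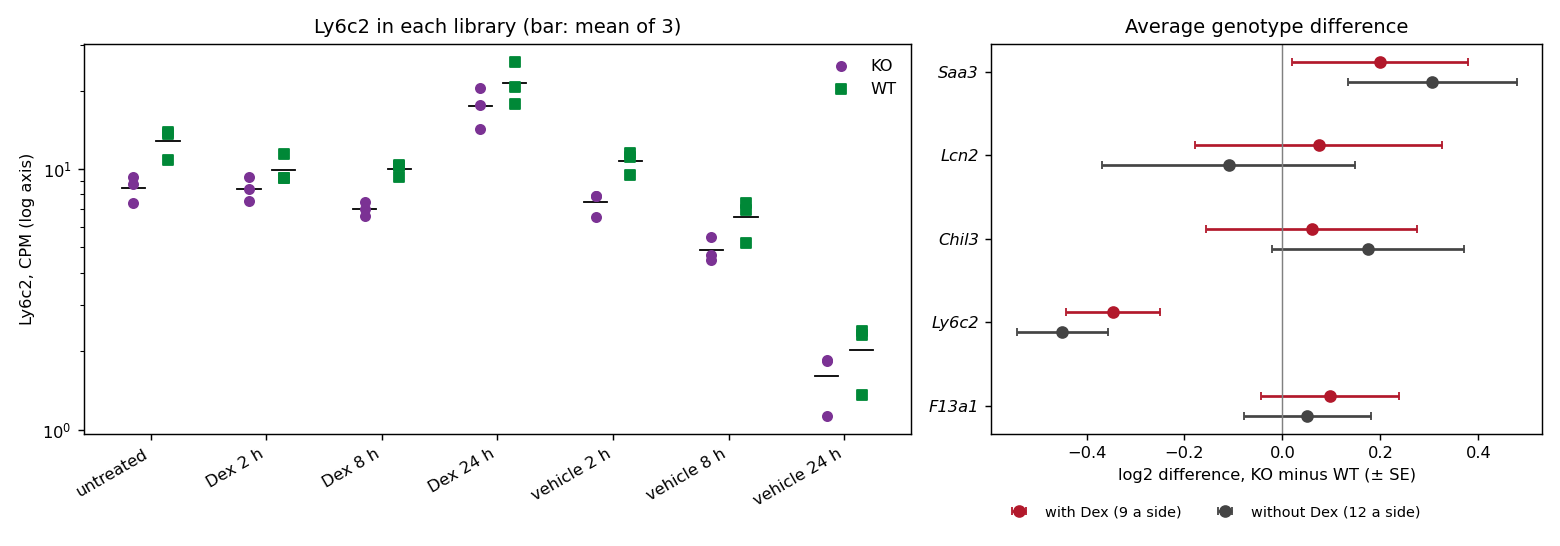
Left, Ly6c2 in CPM (log axis) in each KO (circles) and WT (squares) library of the 7 conditions, with a bar at the mean of 3. Right, the average log2 difference, KO minus WT, with its SE, for each of the 5 genes with Dex (9 libraries a side) and without (12 a side); Ly6c2 lies farthest from 0 for its SE, at -0.35 with Dex and -0.45 without.

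Whether loss of MS4A4A altered the response to Dex was asked as the Dex effect in KO minus that in WT. None of the 5 genes was called, and of all genes 0 (0%) were called for the average over the 3 times by edgeR and 0 by DESeq2, with 598 at an unadjusted edgeR p under 0.05. The average differences were -0.26 ± 0.27 for Saa3, 0.08 ± 0.39 for Lcn2, -0.15 ± 0.31 for Chil3, 0.06 ± 0.15 for Ly6c2 and 0.08 ± 0.20 for F13a1, with adjusted p between 0.794 and 0.959 (edgeR quasi-likelihood, Benjamini-Hochberg). At 24 h Ly6c2 had a log2 fold of 3.42 ± 0.20 in KO and 3.43 ± 0.19 in WT, Chil3 3.59 ± 0.41 in KO and 3.90 ± 0.42 in WT, Lcn2 3.31 ± 0.47 in KO and 3.58 ± 0.48 in WT, and F13a1 3.92 ± 0.27 in KO and 4.18 ± 0.27 in WT. Saa3 had the widest gap, 4.94 ± 0.36 in KO and 6.09 ± 0.38 in WT, a difference of -1.15 ± 0.46 (adjusted p = 0.890, unadjusted 0.0169, edgeR quasi-likelihood, Benjamini-Hochberg). That difference was -0.03 when KO vehicle 24 h replicate 2 was left out.

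**Figure D3:**
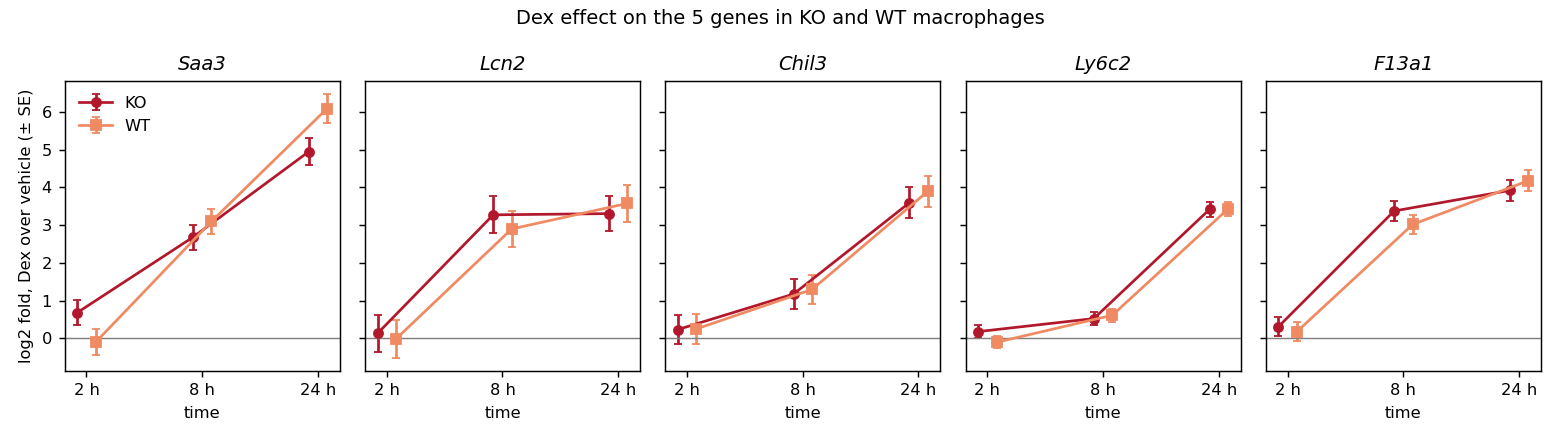
Log2 fold of Dex over vehicle with its SE at 2, 8 and 24 h for each gene, KO circles and WT squares from the fit over all 42 libraries. The widest gaps between the genotypes are those of Saa3, at 0.68 in KO and -0.10 in WT at 2 h and 4.94 in KO and 6.09 in WT at 24 h. The 24 h gap, KO minus WT, was -0.03 when KO vehicle 24 h replicate 2 was left out.

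The surroundings of the 5 genes were described with 9 lists of related genes, the 5 genes left out. The lists were built around genes picked for their Dex values and with earlier results of these data known. Their shares beside those of all genes are thus a description. Of their 119 measured genes 56 rose and 30 fell at 24 h of Dex, 49 rose and 27 fell at 8 h, and 19 rose and 10 fell at 2 h (edgeR quasi-likelihood, Benjamini-Hochberg over all genes, here and in the lists that follow). At 24 h that is 47.1% higher and 25.2% lower, against 26.8% and 26.8% of all genes. At 8 h it is 41.2% higher and 22.7% lower, against 27.5% and 24.7%, and at 2 h 16.0% higher and 8.40% lower, against 8.14% and 6.41%, so the shares lower were near those of all genes. The median log2 fold of all genes at 24 h was 0.01.

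Acute-phase genes, the group of Saa3 and Lcn2, rose in part. Of 27 listed, 11 were measured, of which 6 rose and 1 fell at 24 h, with a median log2 fold of 1.06, that of the metal-binding Mt1. That is 54.5% higher and 9.09% lower, against 26.8% of all genes in each direction. The list was not only late. At 8 h 6 rose and 1 fell, with a median of 1.41, against 27.5% and 24.7% of all genes. Already at 2 h 5 rose and 0 fell, with a median of 0.81, or 45.5% higher against 8.14% of all genes. Hp, which encodes the haemoglobin-binding haptoglobin, averaged 237 ± 2.34 CPM in KO and 244 ± 23.3 CPM in WT after 24 h of Dex, against 3.52 ± 3.17 CPM in KO and 1.74 ± 0.436 CPM in WT after vehicle (SD, n = 3 each). Its log2 fold was 1.85 ± 0.31 at 2 h, 6.35 ± 0.26 at 8 h and 6.57 ± 0.25 at 24 h, so Hp was already called at 2 h. Orm1, orosomucoid, rose by 3.94 ± 0.30 at 24 h. Serpina3m, of the antichymotrypsin family of protease inhibitors, had 0.551 to 1.31 CPM in KO and 0.849 to 1.06 CPM in WT with 24 h of Dex, and was at 0 in every KO and at most at 0.0355 CPM in the WT vehicle libraries, so that no fold is given. Il1rn, the interleukin 1 receptor antagonist, fell by 2.36 on the log2 scale. Complement factor B, Cfb, was the only gene of any list called between the genotypes, 0.87 ± 0.19 higher in KO without Dex, and it was not called for Dex. With counts summed over conditions, 3 sums a side, it lost that call, at 0.98 ± 0.30 (adjusted p = 0.9996, edgeR quasi-likelihood, Benjamini-Hochberg).

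Classical monocyte genes, the group of Ly6c2, rose more often than they fell. Of 28 listed, 27 were measured, and 18 rose and 2 fell at 24 h with a median of 0.74. That is 66.7% higher and 7.41% lower, against 26.8% of all genes in each direction. At 8 h 16 rose and 2 fell, or 59.3% and 7.41%, against 27.5% and 24.7% of all genes. At 2 h 3 rose and 1 fell, and the 11.1% higher is near the 8.14% of all genes. Hp, described above, is on this list too. Gpr141, a G protein-coupled receptor, rose by 1.38 ± 0.09 and the glutathione reductase gene Gsr by 1.03 ± 0.07. Ccr2, the chemokine receptor that brings classical monocytes out of the marrow, went the other way, at a log2 fold of -2.36 ± 0.24. Ccr2 averaged 2.62 ± 0.560 CPM in KO and 3.58 ± 2.18 CPM in WT with Dex, 13.4 ± 4.77 CPM in KO and 19.1 ± 3.10 CPM in WT with vehicle, and 106 ± 23.6 CPM in KO and 99.3 ± 5.29 CPM in WT untreated.

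The fall of Ly6c2 in vehicle was shared by much of the monocyte list. After 24 h of vehicle, against untreated cells, 15 of its 27 measured genes were lower and 6 higher, with a median of -0.33, where 15.4% of all genes were called lower and 15.6% higher (edgeR quasi-likelihood, Benjamini-Hochberg). The fall was not particular to this list. Of the acute-phase list 5 of 11 were lower and 3 higher (median -0.54), and of the granule list 5 of 16 were lower and 2 higher. Of the Ly6 list 2 of 4 were lower and 0 higher. Each of the remaining lists had more genes higher than lower. This comparison of the lists was chosen after the values had been seen. Ccr2 fell by 2.68 on the log2 scale. Plac8 and Ms4a4c, chosen after their values were seen, fell too, with log2 differences of -4.25 and -4.44. With Dex at 24 h these 2 genes stood 1.36 ± 0.41 and 1.36 ± 0.21 above vehicle.

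Within the Ly6 family 4 of 23 listed genes were measured beside Ly6c2. At 24 h of Dex Ly6a, which encodes the stem cell antigen Sca-1, rose by 2.01 ± 0.18 and Ly6e by 1.01 ± 0.10, while the complement inhibitor Cd59a fell by 0.80 and the urokinase receptor gene Plaur by 0.35. Ly6a resembled Ly6c2 in its vehicle course and not in its Dex level. It averaged 78.1 ± 2.70 CPM in KO and 97.1 ± 8.67 CPM in WT with Dex, 23.8 ± 12.7 CPM in KO and 19.5 ± 5.44 CPM in WT with vehicle, and 307 ± 79.3 CPM in KO and 304 ± 79.4 CPM in WT untreated, so its Dex libraries stayed below the untreated ones.

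Granule genes did not move as a group with Lcn2 and Chil3. Of 29 listed, 16 were measured, and 4 rose and 3 fell at 24 h with a median of -0.04, shares no higher than the 26.8% of all genes called in each direction. Mmp8, neutrophil collagenase, accounted for the large change, with a log2 fold of 3.14 ± 0.11, and the oxidase subunit genes Ncf1, Ncf4 and Cybb stood at 0.75 ± 0.06, -0.68 ± 0.05 and -0.53 ± 0.07. S100a8 and S100a9, which encode the calprotectin subunits of neutrophils and monocytes, did not pass, at 0.08 ± 0.36 and -0.63 ± 0.47. Ltf, lactoferrin, a gene chosen after its values were seen, fell by 1.85.

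Of the genes listed with Chil3 as chitinase-like or alternative-activation genes, 12 of 23 were measured, and 6 rose and 5 fell at 24 h with a median of 0.18. That is 50.0% higher and 41.7% lower, against 26.8% of all genes in each direction. The interleukin 4 receptor gene Il4ra rose by 1.25 ± 0.08, the lectin gene Clec10a by 1.67 ± 0.21 and the chitinase-domain gene Chid1, the one paralog of Chil3 in the table, by 0.30 ± 0.09. Igf1, a growth factor gene, fell by 0.85. Of 19 measured coagulation, transglutaminase and fibrinolysis genes out of 30 listed, 9 rose and 6 fell with a median of 0.48. That is 47.4% higher and 31.6% lower, the latter near the 26.8% of all genes. The protease inhibitor gene Serpine2 rose by 2.78 ± 0.15, coagulation factor X, F10, by 2.01 ± 0.16 and thrombomodulin, Thbd, by 1.16 ± 0.09. Tgm2, tissue transglutaminase, a family relative of F13a1, fell by 1.29.

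Partners of Lcn2 and Saa3 changed in both directions. Of 9 measured iron and lipocalin genes out of 18 listed, 2 rose and 5 fell with a median of -0.36, and the 22.2% that rose is near the 26.8% of all genes. Haem oxygenase, Hmox1, rose by 1.27 ± 0.13, and the ferrireductase gene Steap3, the iron transporter gene Slc11a2 and the transferrin receptor gene Tfrc fell by 1.01, 0.78 and 1.07. Of 7 measured receptor genes out of 11 listed, 2 rose and 3 fell with a median of -0.13, where 28.6% higher is also near the share of all genes. The formyl peptide receptor genes Fpr2, which serum amyloid A is known to engage, and Fpr1 rose by 1.35 ± 0.27 and 0.98 ± 0.22, and the scavenger receptor genes Cd36 and Scarb1 fell by 1.35 and 0.27.

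Genes listed as C/EBP, STAT3 and NF-kB regulators of the acute phase, with their receptors and inhibitors, changed in both directions. Of 25 listed, 22 were measured, and 12 rose and 5 fell at 24 h (54.5% higher, and 22.7% lower, near the 26.8% of all genes). At 8 h 10 rose and 6 fell (45.5% and 27.3%, against 27.5% and 24.7% of all genes). At 2 h 6 rose and 5 fell (27.3% and 22.7%, against 8.14% and 6.41%). Cebpb, the C/EBP factor of acute-phase genes, was called at every time, with log2 folds of 0.80 ± 0.13, 1.35 ± 0.14 and 0.83 ± 0.13 at 2, 8 and 24 h. Stat3, the factor downstream of interleukin 6, stood at -0.04 ± 0.08 at 2 h without passing, and rose by 0.83 ± 0.08 at 8 h and 0.61 ± 0.08 at 24 h. Nfkbiz, a nuclear partner of NF-kB known to be needed for Lcn2 induction by inflammatory stimuli in mice, fell by 0.74 at 8 h and 0.75 at 24 h. The receptor genes Lifr and Il1r2, a decoy for interleukin 1, rose by 3.27 ± 0.14 and 2.72 ± 0.20 at 24 h, Klf4, a factor of monocyte differentiation, by 2.00 ± 0.19, and the NF-kB inhibitor gene Nfkbia by 1.20 ± 0.13.

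**Figure D4:**
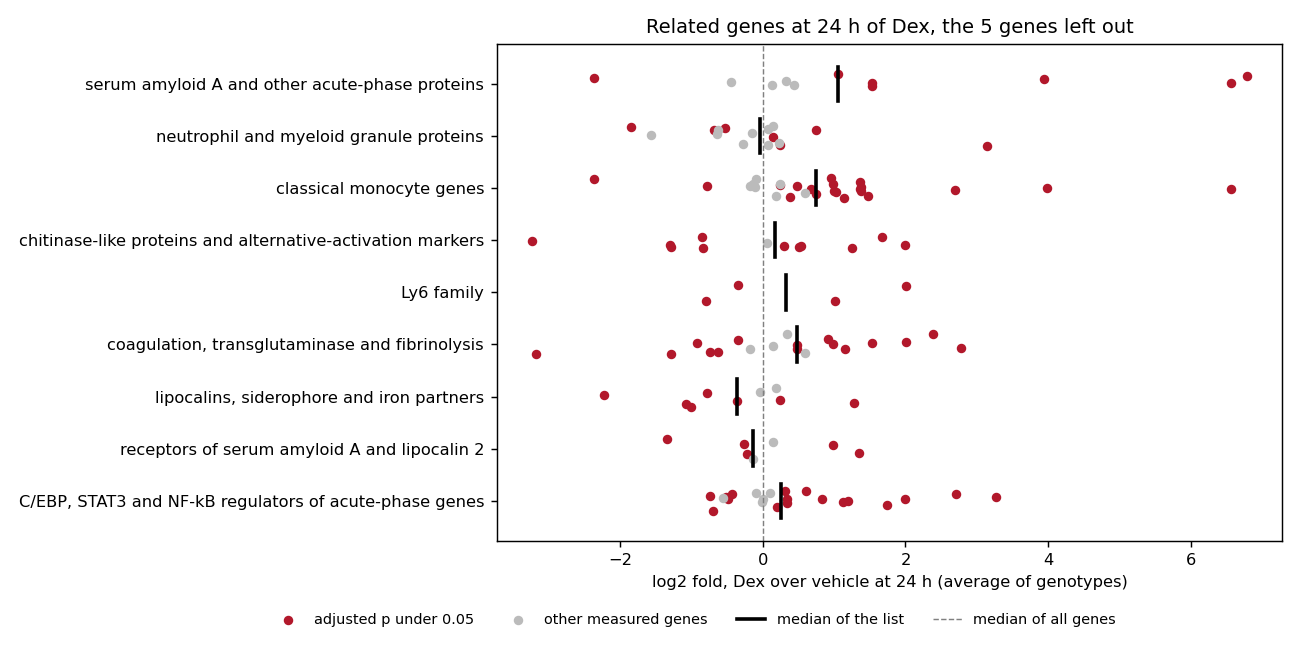
Log2 fold, Dex over vehicle at 24 h, of each measured gene of the 9 related lists, red where called and grey otherwise, with a bar at the median of the list and a dashed line at the median of all genes (0.01). The acute-phase list has its median at 1.06, the monocyte list at 0.74 and the granule list at -0.04, and single genes such as Hp, at 6.57, lie far from their medians.

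Lcn2, Chil3 and Ly6c2 are also expressed by neutrophils or monocytes, so markers of other cells are set beside them. Of 16 neutrophil markers 7 were measured, and their summed level at 24 h was 1123 to 1568 CPM in KO and 1463 to 1601 CPM in WT with Dex, against 231 to 312 CPM in KO and 269 to 368 CPM in WT with vehicle. Mmp8 carried this difference, at a mean of 1249 CPM in KO and 1371 CPM in WT with Dex, against 136 CPM in KO and 161 CPM in WT with vehicle. Mpo, the myeloperoxidase of neutrophil precursors, was at most 0.261 CPM with Dex and 0.557 CPM with vehicle at 24 h and at 0 in 1 library of each group except WT vehicle, and S100a8, S100a9 and Ngp were not called. Of 15 stromal markers 11 were measured, with a sum of 40.8 to 114 CPM in KO and 24.6 to 113 CPM in WT with Dex, against 14.7 to 38.7 CPM in KO and 12.7 to 44.0 CPM in WT with vehicle. Of the other lists 2 of 8 B cell, 1 of 8 T and NK cell, 1 of 7 mast cell, 0 of 7 erythroid, 3 of 8 dendritic cell and 2 of 6 endothelial markers were measured. At 24 h the dendritic cell sum was 5.11 to 6.16 CPM in KO and 5.25 to 7.23 CPM in WT with Dex, against 12.1 to 14.9 CPM in KO and 10.5 to 16.9 CPM in WT with vehicle. The endothelial sum was 5.48 to 7.01 CPM in KO and 5.65 to 7.05 CPM in WT with Dex, against 9.23 to 11.9 CPM in KO and 10.1 to 14.7 CPM in WT with vehicle. The T and NK cell marker had 1.68 to 2.76 CPM in KO and 2.87 to 6.23 CPM in WT with Dex, against 7.74 to 9.79 CPM in KO and 11.1 to 14.3 CPM in WT with vehicle, and the mast cell marker 0.482 to 1.90 CPM in KO and 1.07 to 2.26 CPM in WT with Dex, against 3.22 to 3.54 CPM in KO and 4.93 to 6.87 CPM in WT with vehicle. These 4 groups of markers were thus lower with Dex at 24 h. The neutrophil sum was higher with Dex in both genotypes. For the stromal sum the lowest Dex library stood just above the highest vehicle library in KO, and the ranges overlapped in WT. Within each replicate number, whose WT libraries deviated together at this time, the WT stromal sum was higher with Dex. It was 24.6, 113 and 57.3 CPM with Dex in replicates 1, 2 and 3, against 12.7, 44.0 and 14.6 CPM with vehicle. The B cell sum (Cd79b and Ebf1) overlapped, at 2.64 to 4.2 CPM with Dex and 3.14 to 5.63 CPM with vehicle over both genotypes. The sets are small. Cd4 alone stands for T and NK cells, Kit alone for mast cells, Flt3, Zbtb46 and Itgax for dendritic cells, and Pecam1 and Kdr for endothelial cells. The part of any marker group in the Dex values of the 5 genes was not tested.

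Some neutrophil granule genes varied with Lcn2 and Chil3 in another way, by replicate number. Lcn2 and Chil3 were highest in replicate 3 in 12 of 14 groups each, which held for 1.42% of all genes, and S100a8 was in 13 and S100a9, Ngp and Ltf were in 14 of 14 groups. Of the other measured neutrophil markers, Mpo was highest in replicate 3 in 10, Csf3r in 9 and Mmp8 in 7 of 14 groups, and the sum of the 7 markers in 11. The median ratio of replicate 3 to the mean of the other replicates of its group was 1.83 for Lcn2, 1.77 for Chil3, 1.96 for S100a8, 2.50 for S100a9, 2.78 for Ngp and 3.53 for Ltf. It was 0.807 for Saa3, 1.05 for Ly6c2 and 0.834 for F13a1, and replicate 3 was highest in 3, 5 and 0 of their 14 groups. Ngp, Ltf, Mpo, Csf3r and this split were chosen after the values were seen, and the part of neutrophil transcripts in the Lcn2 and Chil3 levels was not tested. Within replicates 1, 2 and 3 the 24 h log2 difference, Dex minus vehicle, was 3.80, 4.49 and 2.65 for Lcn2 and 3.99, 3.99 and 3.45 for Chil3, so it was positive in each and smallest in replicate 3. For Ly6c2 it was 4.03, 3.27 and 2.87, for Saa3 5.90, 5.22 and 5.99, and for F13a1 4.11, 3.74 and 4.45. These differences, averaged over the genotypes, are a description, since the numbers did not pair Dex with vehicle libraries in KO at 24 h (lowest correlation -0.0348).

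**Figure D5:**
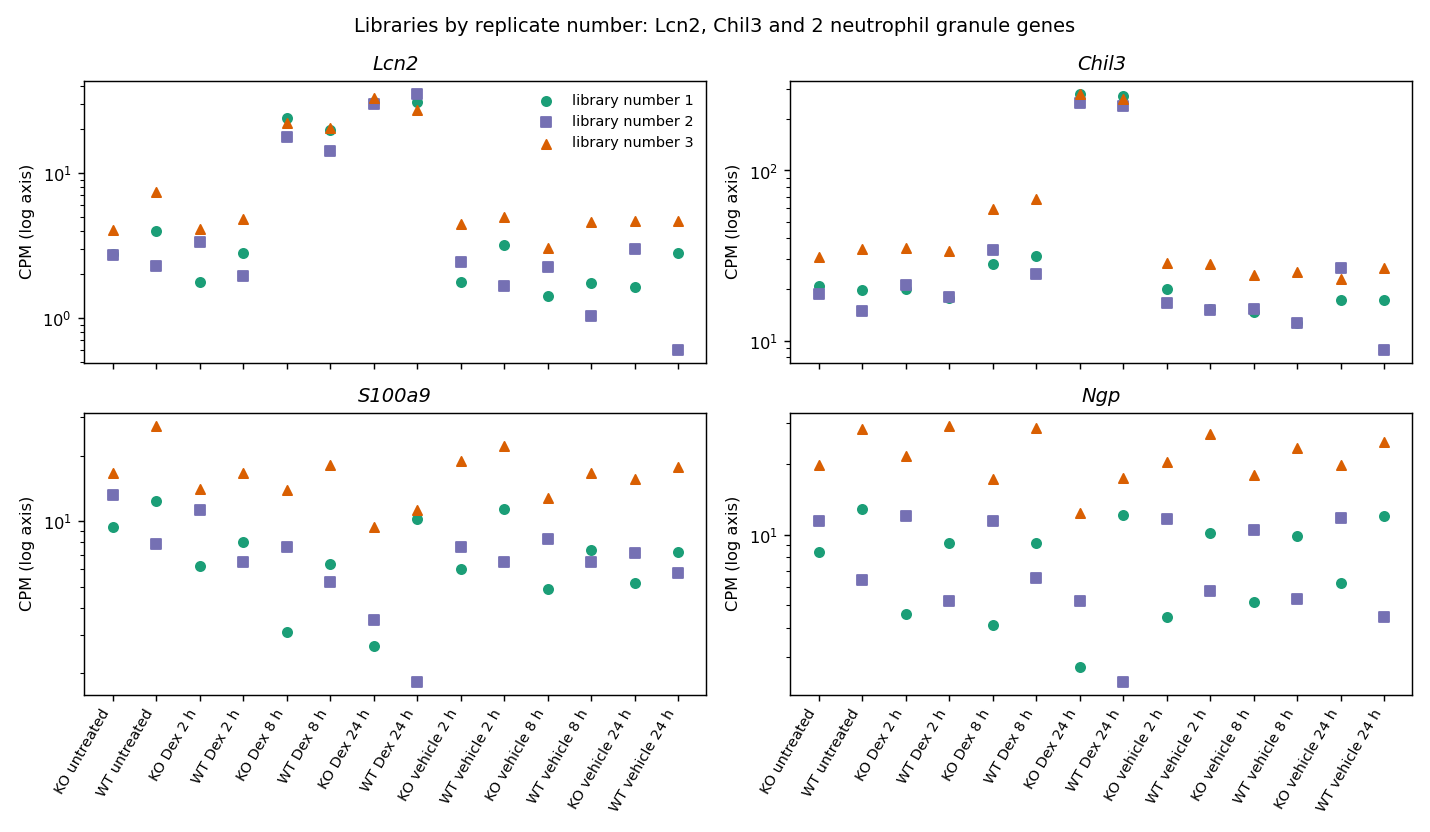
Levels in CPM (log axis) of Lcn2, Chil3 and the neutrophil granule genes S100a9 and Ngp in each of the 14 groups, with a marker for each replicate number. The triangles of replicate 3 lie highest in 12 of 14 groups for Lcn2 and Chil3 and in 14 of 14 for S100a9 and Ngp.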

How the data were processed

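RNA of cultured mouse macrophages was sequenced from libraries made with a SMART-Seq mRNA kit, per the labels' protocols. The authors deposited expected counts (estimated counts per gene symbol) of 11160 genes in 42 libraries. The tools named are Salmon, HISAT2 and fastp, with GRCm38, per the submitters' processing notes; the sources used here give neither versions nor roles, nor the annotation, nor how genes were selected for the table. Titles assigned libraries to groups, and 0 library columns were left out. Of the deposited values 69.5% are whole to within 0.01. No gene totals under 256 counts, so scarce genes of the lists were not analysed here.

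From there, counts were rounded and fitted with edgeR 4.0.16 (R 4.3.3), with TMM scaling (factors 0.950 to 1.04) and 1 mean for each of the 14 groups. Tests were quasi-likelihood F tests with Benjamini-Hochberg adjustment over all genes, called at an adjusted p of 0.05; filterByExpr removed 0 genes. The script was first tested on simulated data. Level differences between libraries used log2 CPM with a prior count of 2. Depth was 10140211 to 33528397 counts per library. Replicates of a group differed by more than counting noise (chi-square per degree of freedom 7.09 to 57.1 over 42 pairs), so no library was treated as a repeat of another.

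The genes, the related lists and the markers were chosen with earlier results of these data known. The genes named are the 5 genes, Ms4a4a, paralogs of the 5 genes in the table, up to 4 called genes of each related list with the lowest p at 24 h of Dex, a few regulators and markers (Cebpb, Cebpd, Stat3, Nfkbiz, S100a8, S100a9, Ccr2, Lyz2, Col1a1, Col1a2 and Col3a1) where described, and the 3 genes most like each of the 5; further genes, such as Mt1, Cfb, Mpo, Csf3r and Ngp, were picked with their values in view, and 1 gene of this rule is not reported here. To see if replicate numbers pair the libraries, deviations from the group mean were correlated between libraries sharing a number. For KO against WT every correlation was over 0.1 after 2, 8 and 24 h of vehicle and 2 h of Dex. This did not hold in untreated cells or after 8 or 24 h of Dex (lowest -0.175, -0.0255 and 0.0908). The numbers were therefore not taken as pairs for averages over conditions. Within the 4 paired conditions the block changed no call on Ly6c2 or Saa3, and other genes were not examined in this way. For Dex against vehicle every correlation was over 0.1 in KO at 2 and 8 h and in WT at 8 and 24 h, and not in KO at 24 h or WT at 2 h (lowest -0.0348 and 0.0672). Alternatives were DESeq2 1.42.0, median-ratio scaling, a mean of at least 5 CPM, a prior count of 0.5, the replicate block, the compared libraries alone, leaving out each library, and, added after the data were seen, counts summed over conditions.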

Additional observations from a re-analysis of the deposited data

How the results depend on the processing

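The Dex against vehicle and vehicle against untreated values of the 5 genes were recomputed with another scaling, prior count, filter or tool and with the replicate block. In 115 of 115 recomputed values the shift was below the SD of the gene's log2 CPM between libraries of a group. These include a fit with no filter on low counts, which could not shift, since the filter had removed 0 genes. The fit on the compared libraries alone was run for the genotype comparisons only. The Ly6c2 difference between KO and WT without Dex was called with DESeq2 (adjusted p = 0.00171), median-ratio scaling (0.0275), a mean of at least 5 CPM (0.0261) and the replicate block (0.00660; edgeR quasi-likelihood, Benjamini-Hochberg). On the compared libraries alone it was -0.45 (adjusted p = 0.0621) and with counts summed over conditions -0.40 (unadjusted p = 0.00594, edgeR quasi-likelihood), which leaves 3 sums a side; the cause was not tested. Left out in turn, libraries moved it between -0.51 and -0.41, with a call in 17 of 24. With Dex its adjusted p was 0.0747 with the replicate block and 0.0811 with DESeq2. The Ly6c2 difference of the 24 h Dex effect, -0.01, was 0.0020 on the compared libraries alone.

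Without Dex 25 genes were called between KO and WT, against 111 with the replicate block (48 higher, 63 lower), 71 with DESeq2, 9 to 38 with 1 library left out and 0 with summed counts (363 at an unadjusted p under 0.05, edgeR). With Dex 6 were called, against 37 with the replicate block, 25 with DESeq2 and 6 to 14 with 1 library left out. The numbers were not taken as pairs for these averages. After 24 h of vehicle 40 of the 119 measured related genes were lower than untreated, where 15.4% of all genes were. Among genes with a mean of at least 5 CPM 26 were lower. Fewer related genes are tested there, and their number is not given.

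With 1 library left out, uncalled differences changed sign. KO minus WT without Dex ranged from -0.23 to 0.092 for Lcn2 and -0.056 to 0.16 for F13a1, and with Dex from -0.011 to 0.21 for Lcn2 and -0.068 to 0.25 for Chil3. The average difference of the Dex effect ranged from -0.37 to 0.11 for Saa3, -0.19 to 0.25 for Lcn2, -0.29 to 0.039 for Chil3 and -0.068 to 0.22 for F13a1, and that at 24 h from -0.84 to 0.23 for Lcn2, -0.72 to 0.021 for Chil3, -0.18 to 0.23 for Ly6c2, -0.53 to 0.18 for F13a1 and, with no change of sign, -1.48 to -0.03 for Saa3. In single conditions Saa3 ranged from -0.27 to 0.094 untreated, -0.15 to 1.30 after 24 h of vehicle, and -0.0038 to 0.34 after 8 h of Dex. Its Dex against vehicle value at 24 h ranged from 5.35 to 6.06 and its vehicle against untreated value from -0.62 to 0.10, with 6.06 and -0.62 without KO vehicle 24 h replicate 2. Over 42 libraries in place of 14 group means, r of Gda with Lcn2 was 0.883 and of Sec11a with Ly6c2 0.660. A sum of Chil3 or Ly6c2 with its close paralogs was not run, since the paralogs were not analysed here. Vehicle levels of Lcn2 and Ly6c2 rest on few counts, 17 to 109 and 22 to 65 per library at 24 h.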
